A study of Mus musculus with 16 samples.

Results

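The genes described here carry solute carrier names and were at an appreciable level in endothelial cell fractions isolated from saline lungs. These fractions also held markers of other cells, so a member's transcripts need not come from endothelium. They were chosen among protein-coding genes by name and level. The symbol had the form of a solute carrier name (Slc, a family number, the letter a and a member number). The mean in 4 saline libraries was at least 5 FPKM, a count of fragments divided by gene length and a library scale factor. Of 342 protein-coding genes with such a name, 86 reached that level, and 84 of them were kept. Slc2a1 and Slc6a2 also reached it and were set aside by name together with Slc7a2, Slc7a11, Slc11a1, Slc11a2, Slc39a14 and Slc40a1. The tables held 54532 genes in all. The name pattern also took in 3 genes that are not carriers, namely Slc9a3r1 and Slc9a3r2, which encode scaffold proteins that bind a sodium-proton exchanger, and Slc7a6os, which is named for lying opposite the carrier gene Slc7a6. They were kept as members and are reported under their own heading of role.

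Bulk RNA-seq was measured on pulmonary endothelial cells (ECs) that had been taken from digested lungs with magnetic beads, as cells carrying CD31 and lacking CD45. In the first experiment male WT C57/BL6J mice of 8 weeks received saline (n = 4) or 10 mg/kg LPS (n = 6) into the trachea. In the second experiment all mice received 2 mg/kg LPS and both alleles of Fgfr1 were floxed in all of them. The control group was Fgfr1 loxP/loxP (n = 3, called loxP here). The knockout group was Fgfr1 iΔEC/iΔEC (n = 3, called iDEC here), in which a tamoxifen-inducible CreERT2 driven by the VE-cadherin promoter deletes Fgfr1 in ECs. Both of these groups had been given tamoxifen. LPS (lipopolysaccharide) comes from the outer membrane of bacteria, and cells were collected after 24 h in every group. Nothing in the labels says whether a library is 1 mouse or a pool, so p-values measure the spread between these libraries. The saline libraries held 13478726 to 18807007 reads on genes each, with 17840221 to 19043015 per LPS library, 15969575 to 17002788 per loxP library and 16642177 to 16943522 per iDEC library. Since the tables of the experiments were normalized separately, every test was made within an experiment.

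Solute carriers are membrane proteins that move a solute down its gradient or couple its movement to that of an ion or of a second solute, without hydrolysing ATP themselves. Their families are numbered by sequence, and most families have a preferred kind of cargo: amino acids, sugars and monocarboxylates, nucleosides, metal ions, inorganic ions, vitamins and organic ions. The largest family, Slc25, sits mainly in the inner membrane of mitochondria and exchanges nucleotides, phosphate and metabolic intermediates with the cytosol. In the lung the capillary endothelium separates plasma from the thin alveolar wall, and its carriers take up nutrients from plasma, hold cell volume and clear signalling molecules such as adenosine.

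Which cells the beads had brought along was examined first, with 9 lists of cell type markers. Endothelial markers were abundant in every library, with a summed level of 3642 to 6126 FPKM in saline (median 4142) and 1595 to 3747 FPKM in LPS (median 3175), and the most abundant of the 10 was Cldn5 (1533 FPKM in saline). Of these 10 genes, 6 fell in LPS over saline and none rose. Pecam1, which encodes the CD31 used for the isolation, was at 400.3 ± 81.5 FPKM in saline (SD, n = 4) and at 358 ± 76.8 in LPS (SD, n = 6; adjusted p = 0.516). Markers of other cells were present as well. Leukocyte markers summed to 98.5 to 387 FPKM in saline and 1309 to 3169 FPKM in LPS, with Tyrobp the most abundant, and all 6 of them rose. Ptprc, which encodes the CD45 used for depletion, was at 6.97 ± 3.13 FPKM in saline and 34.6 ± 11.4 in LPS. Among 8 neutrophil markers 6 rose, from a median sum of 193 to 2592 FPKM (S100a9 the most abundant), and among 8 macrophage markers 6 rose and Siglecf fell, from a median sum of 605 to 3598 FPKM (Lyz2 the most abundant). Epithelial markers, led by Sftpc, summed to a median of 1811 FPKM in saline and 739 FPKM in LPS, where 3 of 10 fell. The remaining lists were lower: lymphocyte markers had median sums of 108 FPKM in saline and 25.2 FPKM in LPS (Cd79a the most abundant), fibroblast markers 59.0 and 30.6 (Col3a1), mural markers 48.8 and 61.5 (Acta2) and erythroid markers 13.1 and 44.2 (Hba-a1). No marker was at 0 in all libraries of a group. In bulk samples fewer cells of a type and less RNA per cell cannot be told apart, and the part of these other cells in the changes of the carriers was not tested.

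**Figure D1:**
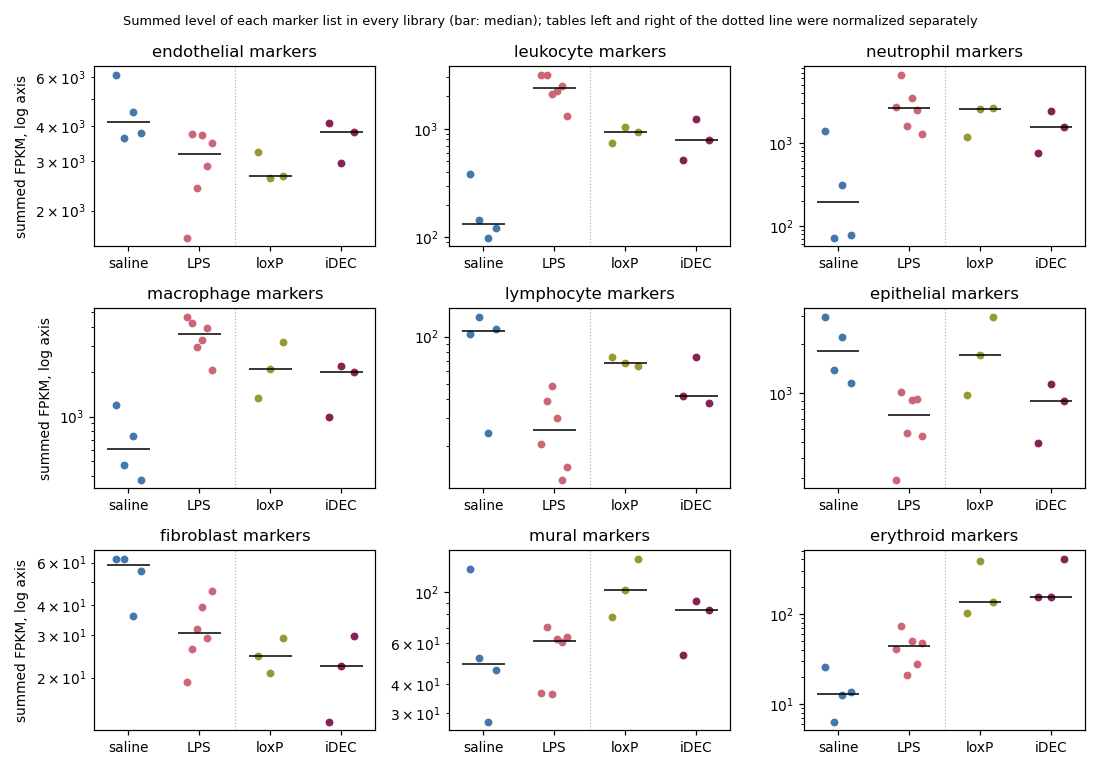
Summed FPKM of each marker list (log axis) in each library of the 4 groups, with the median of a group as a bar. Leukocyte, neutrophil and macrophage sums were higher in LPS than in saline, and saline 1 lay above the other saline libraries in the neutrophil panel at 1382 FPKM.

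A saline library stood apart. Saline 1 had a neutrophil sum of 1382 FPKM against 71.4 to 309 in the other saline libraries. Its leukocyte sum was 387 FPKM against 98.5 to 144, and its endothelial sum 6126 FPKM against 3642 to 4496. Macrophage (1200 against 375 to 737), epithelial (2973 against 1151 to 2232) and mural sums (125 against 27.4 to 51.8) were highest there too. So was the erythroid sum (25.6 against 6.36 to 13.7). Changes of members that passed only with saline 1 or only without it are given both ways.

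In saline the members spanned a wide range of levels, and this range is a description, since the saline level chose them. Above 100 FPKM there were 3 members, between 20 and 100 there were 18, between 10 and 20 there were 20, and 43 lay between 5 and 10 FPKM. In every saline library 70 members were at 5 FPKM or more. The median coefficient of variation between replicates was 14.3% in saline and 16.6% in LPS. Just inside the threshold were Slc10a3 (5.11 ± 0.707 FPKM), Slc25a27 (5.09 ± 0.978) and Slc15a4 (5.04 ± 0.721), and just outside were Slc10a6 (4.82 ± 4.72), Slc36a1 (4.76 ± 1.14) and Slc30a6 (4.67 ± 0.590). A further 76 carriers had a mean of 1 to 5 FPKM and 174 were under 1 FPKM, counting carriers that the names above do not set aside.

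**Figure D2:**
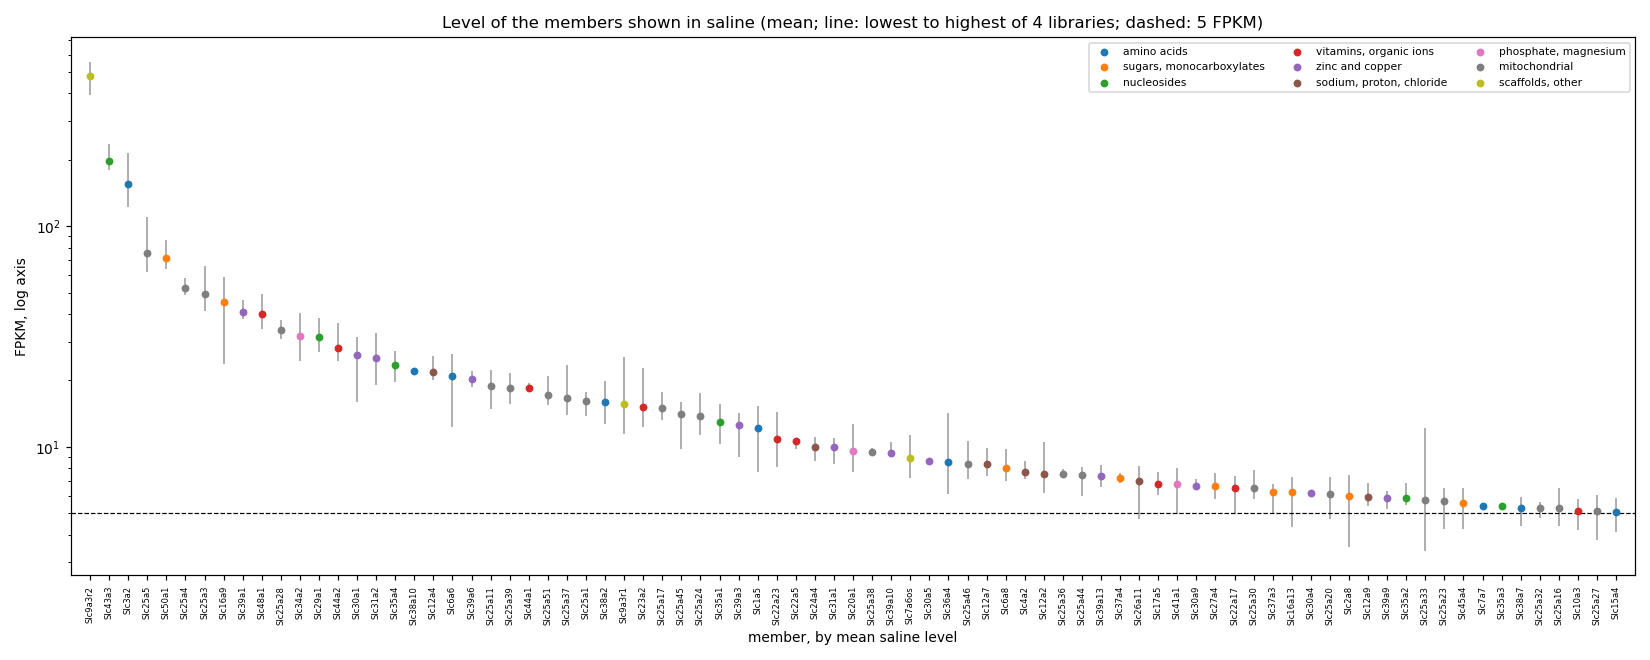
Mean FPKM of the members in saline (log axis, 3 of the 84 not shown), ordered by level and coloured by role, with a line from the lowest to the highest of 4 libraries and a dashed line at 5 FPKM. Slc9a3r2 (480), Slc43a3 (198) and Slc3a2 (155) lay above 100 FPKM, and 43 of the 84 lay between 5 and 10.

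The most abundant member was Slc9a3r2, a scaffold with PDZ domains that ties membrane proteins to the actin linker ezrin, at 557, 394, 500 and 470 FPKM in saline 1 to 4. It was followed by Slc43a3, a carrier of purine nucleobases, at 236, 179, 197 and 180 FPKM, and by Slc3a2, the CD98 heavy chain that brings several amino acid exchangers to the plasma membrane, at 214, 122, 152 and 133 FPKM. These were the members above 100 FPKM, and the ranges of the last pair overlapped. The adenine nucleotide translocase Slc25a5 had a mean of 75.5 FPKM, above its close relative Slc25a4 at 52.7 FPKM, and the sugar carrier Slc50a1 had a mean of 71.7 FPKM. The mitochondrial phosphate carrier Slc25a3 (49.1 FPKM), the monocarboxylate family member Slc16a9 (45.6), the zinc importer Slc39a1 (40.9) and the heme carrier Slc48a1 (40.0) completed the highest 10, and among these 4 the neighbours in rank had overlapping library values. By role, the scaffold pair held 23.8% of the summed FPKM of the members, the 23 mitochondrial carriers 19.9%, the 6 nucleoside and nucleotide sugar carriers 13.3% and the 9 amino acid and peptide carriers 12.0%. Metal carriers (12 members) held 8.60%, carriers of sugars, monocarboxylates and fatty acids (9 members) 7.84%, carriers of vitamins and organic ions (10 members) 7.43%, inorganic ion carriers (9 members) 4.32% and phosphate and magnesium carriers (3 members) 2.31%.

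The first comparison asks how the carriers of the EC fraction stand 24 h after 10 mg/kg LPS. Members rose and fell, and roles are described one by one, since no difference between roles was tested. Values were compared as log2(FPKM + 1) with limma, and p-values were adjusted over all 14893 genes tested. All 84 members were tested. Past an adjusted p of 0.05 and a log2 fold change of 1, 5 members were higher and 5 were lower in LPS, where 11.9% of all genes tested were higher and 6.79% lower by that rule. Past the adjusted p alone, which is what "rose" and "fell" stand for below, 22 members rose and 20 fell, where 29.5% of all genes tested rose and 23.7% fell. In 31 members the saline and LPS libraries did not overlap (15 higher and 16 lower in LPS), or 36.9%, and in 39.4% of all genes tested they did not. The median log2 fold change of the members was -0.04 and that over all genes tested was 0.01.

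Since the saline libraries that chose the members also enter this comparison, members that happened to read high in saline are favoured, and nothing about the balance of rises and falls is read from these counts. A list chosen on the mean over all 10 libraries held 97 carriers, of which 13 were higher and 2 lower past both limits. A list chosen on the loxP libraries of the second experiment held 90 carriers, of which 13 were higher and 1 was lower. When members were chosen on saline 1 and 2 and compared in saline 3 and 4, 9 of 84 were higher and 4 lower, and in the opposite split 7 of 85 were higher and 6 lower. Of the 10 members past both limits, 9 met the threshold on each pair of saline libraries and passed both limits on the other pair. The exception was Slc25a27, whose mean was 4.67 FPKM in saline 1 and 2. These 10 had already passed with all libraries, and each split used the same LPS libraries, so the splits are no independent check of them. Without saline 1 the members past both limits were 4 higher and 5 lower, beside 1947 and 1078 of 14767 genes tested. Past the adjusted p alone 24 members rose and 21 fell, beside 4606 and 3766 of those genes. The scale matters as well. Scaled on the endothelial marker list, all genes shifted upwards by a median of 0.60, and 46 members rose and 4 fell past the adjusted p. The share of all genes by that rule is not given. Past both limits 24 members were higher and 2 lower on that scale, beside 4606 and 185 of all genes. Of the 42 members that passed, 26 passed on that scale, 37 passed when scaled on total reads and 34 passed after quantile normalization. On the endothelial scale 11 of those that fell had a positive sign, and after the all-gene median was taken off none differed in sign. The directions below are therefore relative to the bulk of genes.

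**Figure D3:**
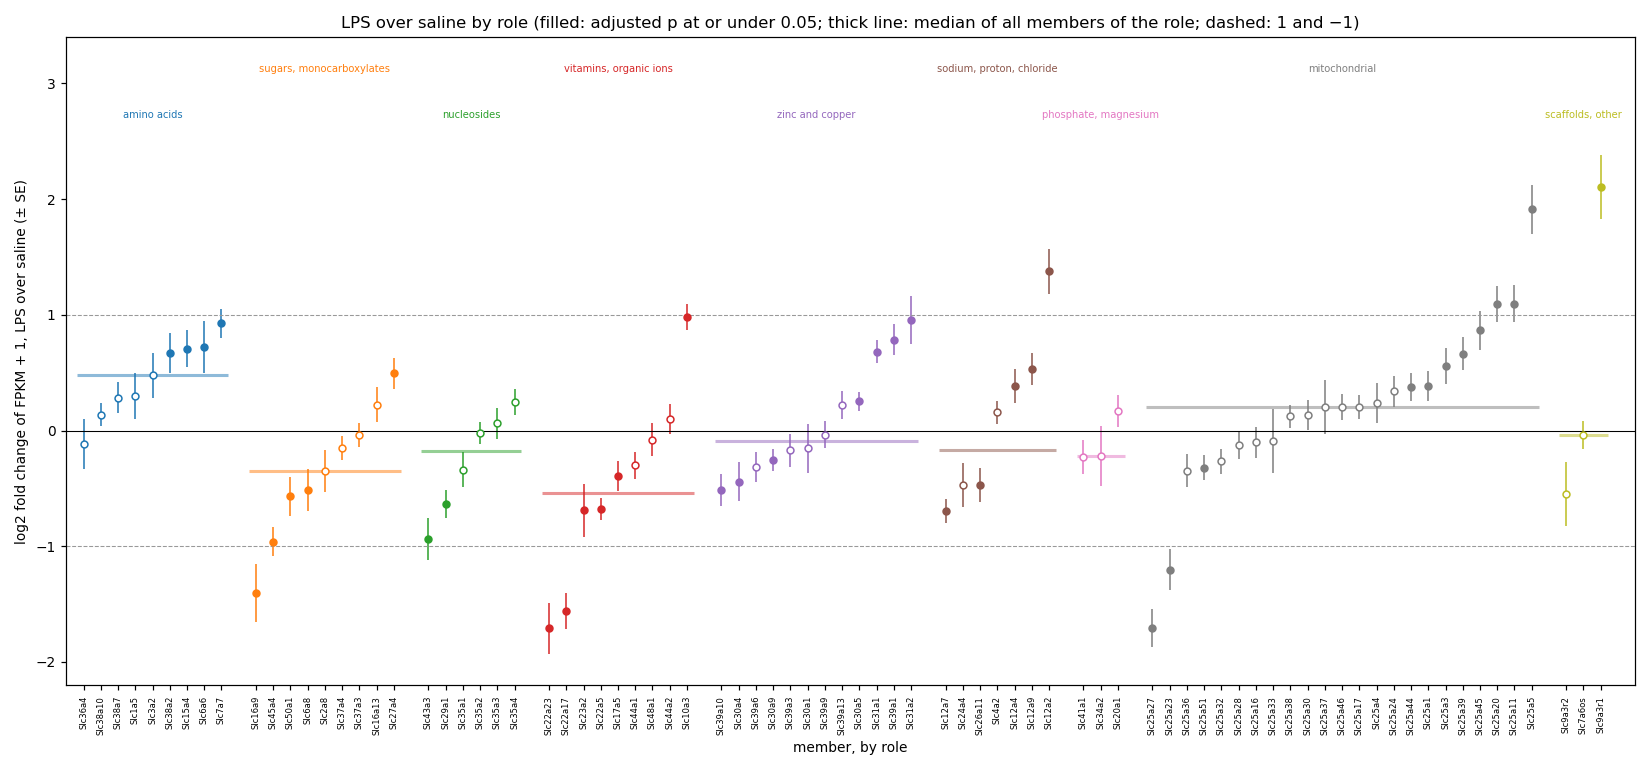
Log2 fold change of FPKM + 1 in LPS over saline (± SE from limma) for the members (3 of the 84 not shown), grouped by role and ordered within each role, with filled points for an adjusted p at or under 0.05 and a thick line at the median of all members of each role. The medians were 0.48 for amino acid carriers and -0.54 for carriers of vitamins and organic ions. Scaled on the endothelial list, every role's median was above 0.

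Among the 9 amino acid and peptide carriers, 4 rose and none fell, with a median log2 fold change of 0.48. After quantile normalization 2 passed as higher and 1 as lower. Slc7a7, the light chain that pairs with Slc3a2 to exchange cationic for neutral amino acids, was at 5.34, 5.55, 5.24 and 5.52 FPKM in saline and at 8.66 to 14.2 FPKM in LPS (median 11.0). All 6 LPS libraries lay above the saline libraries, and the log2 fold change was 0.93 (SE 0.13, adjusted p = 0.000162). The lysosomal histidine and peptide carrier Slc15a4 rose from 5.04 ± 0.721 to 8.99 ± 1.98 FPKM, again without overlap. The taurine carrier Slc6a6 rose by 0.72 and the sodium-coupled neutral amino acid carrier Slc38a2 by 0.67 on the log2 scale, both with overlapping groups. Slc6a6 did not pass when scaled on total reads (0.53, adjusted p = 0.0991), and neither gene passed after quantile normalization (0.36 and 0.37, adjusted p = 0.281 and 0.109). Slc3a2, the partner of Slc7a7, was at 174 to 283 FPKM in LPS (median 210) against 155 ± 41.0 in saline, and did not pass (log2 fold change 0.48, SE 0.20, adjusted p = 0.0589). It passed without saline 1, which held its highest saline value (0.64, adjusted p = 0.0113). The glutamine carrier Slc1a5 had a log2 fold change of 0.30 and an adjusted p of 0.226.

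Among the 9 carriers of sugars, monocarboxylates and fatty acids, 4 fell and 1 rose. On the endothelial scale 3 passed as higher and none as lower, on total reads 1 and 5, and after quantile normalization 1 and 4. The largest fall was in Slc16a9, at 23.8, 48.3, 58.6 and 51.5 FPKM in saline and 11.1 to 20.5 FPKM in LPS (median 16.7). Saline 1 was the lowest of the saline libraries and still lay above every LPS library, and the mean was 2.84-fold lower in LPS. Its log2 fold change was -1.40 (SE 0.25, adjusted p = 0.000834), and it was -1.68 without saline 1. Scaled on the endothelial list it was -0.66 with an adjusted p of 0.0515. Slc45a4 fell from 5.54 ± 0.959 to 2.35 ± 0.333 FPKM without overlap, and did not pass on the endothelial scale (-0.34, adjusted p = 0.248). Slc50a1, the member of this role with the highest level, was at 70.2, 64.0, 86.5 and 66.1 FPKM in saline and 34.2 to 65.0 FPKM in LPS (median 47.8), a log2 fold change of -0.57 (adjusted p = 0.0147), with the highest LPS library inside the saline range. On the endothelial scale its log2 fold change was 0.19 (adjusted p = 0.398). The creatine carrier Slc6a8 fell by 0.51 on the log2 scale, a change that did not pass without saline 1 (adjusted p = 0.0870) and was 0.15 on the endothelial scale (adjusted p = 0.507). Slc2a8 did not pass (-0.35, adjusted p = 0.122) and passed as a fall without saline 1 (-0.54, adjusted p = 0.00611). The rise was in Slc27a4, which takes up and activates long-chain fatty acids, from 6.64 ± 0.933 to 9.80 ± 1.54 FPKM.

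Among the 6 carriers of nucleosides, nucleobases and nucleotide sugars, the pair that acts at the plasma membrane fell and none rose. On the endothelial scale 3 of the 6 passed as higher and none as lower. On total reads and after quantile normalization none passed as higher and 3 as lower. Slc43a3, second in level of all members, was at 67.3 to 134 FPKM in LPS (median 106), below the 179 to 236 FPKM of every saline library. The mean was 1.90-fold lower (log2 fold change -0.94, SE 0.18, adjusted p = 0.00147), and on the endothelial scale the log2 fold change was -0.17 (adjusted p = 0.405). Slc29a1, the equilibrative carrier that takes up adenosine, was at 38.4, 26.9, 31.1 and 30.1 FPKM in saline and at 17.1 to 22.4 FPKM in LPS (median 20.1), also without overlap (log2 fold change -0.64, SE 0.12, adjusted p = 0.00122). On that scale the log2 fold change of Slc29a1 was 0.11, with an adjusted p of 0.704. The 4 members of the Slc35a family, which load nucleotide sugars into the Golgi or are related to those that do, had log2 fold changes from -0.34 to 0.25 and did not pass. Without saline 1, Slc35a1 passed as a fall (-0.43, adjusted p = 0.0332).

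Of the 10 carriers of vitamins, choline, heme and organic ions 6 fell and 1 rose, with a median of -0.54. The number that fell was 5 without saline 1, and on the endothelial scale 3 rose and 2 fell. On total reads 1 passed as higher and 7 as lower, and after quantile normalization 1 and 9. Slc22a23, an orphan member of the organic ion family, was at 8.14, 10.9, 14.4 and 10.1 FPKM in saline and at 1.34 to 4.26 FPKM in LPS (median 2.58). Slc22a17, described as a receptor for the siderophore-binding protein lipocalin 2, was at 5.02, 6.61, 7.34 and 7.09 FPKM in saline and at 1.11 to 2.50 FPKM in LPS (median 1.52). In neither gene did the groups overlap, and the means were 4.05-fold and 4.15-fold lower. The log2 fold changes were -1.71 for Slc22a23 (SE 0.22, adjusted p = 9.63e-05) and -1.56 for Slc22a17 (SE 0.16, adjusted p = 2.05e-05). On the endothelial scale they were -1.08 and -0.97, the second short of the limit of 1. The carnitine carrier Slc22a5 of the same family fell from 10.6 ± 0.535 to 6.25 ± 0.634 FPKM, without overlap. Slc17a5, the sialic acid exporter of lysosomes, fell by 0.39 on the log2 scale. On the endothelial scale neither Slc22a5 (log2 fold change 0.01, adjusted p = 0.975) nor Slc17a5 (0.27) passed. The vitamin C carrier Slc23a2 was at 22.8, 12.9, 13.1 and 12.2 FPKM in saline and at 4.95 to 12.4 FPKM in LPS (median 8.97). Its fall (log2 fold change -0.69, adjusted p = 0.0262) leaned on saline 1, the highest library, and did not pass without it (-0.49, adjusted p = 0.0729) or on the endothelial scale (0.02, adjusted p = 0.956). The rise was in Slc10a3, from 4.89, 5.52, 5.81 and 4.22 FPKM to 9.90 to 12.4 FPKM (median 10.6), with a log2 fold change of 0.98 (SE 0.11, adjusted p = 4.2e-05). The heme carrier Slc48a1 was at 40.0 ± 6.64 FPKM in saline and 37.8 ± 5.53 in LPS (adjusted p = 0.662).

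Of the 12 metal carriers 4 rose and 3 fell. After quantile normalization 2 passed as higher and 5 as lower, on total reads 3 and 4, and on the endothelial scale 6 and 0. The 4 that rose included both copper carriers of the Slc31 family, whose genes lie 62316 bases apart on chromosome 4 on the same strand. Slc31a1, the copper importer, was at 8.35, 10.6, 11.0 and 10.1 FPKM in saline and 15.2 to 17.9 FPKM in LPS (median 16.6). Slc31a2, its relative in endosomes and lysosomes, was at 19.0, 25.5, 32.8 and 24.1 FPKM in saline and 36.6 to 73.5 FPKM in LPS (median 47.3). Both were without overlap, with log2 fold changes of 0.68 (SE 0.10, adjusted p = 0.000268) and 0.96 (SE 0.21, adjusted p = 0.00278). Slc31a2 did not pass after quantile normalization (0.54, adjusted p = 0.0515). Slc39a1, the most abundant zinc importer, was at 46.2, 37.8, 41.6 and 37.8 FPKM in saline and 58.5 to 84.1 FPKM in LPS (median 72.8), a log2 fold change of 0.79 (SE 0.13, adjusted p = 0.000639). Another zinc importer, Slc39a10, fell from 9.39 ± 0.718 to 6.35 ± 1.37 FPKM. The Slc30 family moves zinc out of the cytosol, and in it Slc30a5 rose by 0.25 and Slc30a4 and Slc30a9 fell by 0.44 and 0.25 on the log2 scale. The falls of Slc30a4 and Slc30a9 did not pass without saline 1 (adjusted p = 0.0771 and 0.0523). On the endothelial scale none of the 3 falls passed (0.17 for Slc39a10, 0.20 for Slc30a4 and 0.41 for Slc30a9, adjusted p = 0.528, 0.434 and 0.0948). The rise of Slc30a5 did not pass when scaled on total reads (0.07, adjusted p = 0.569) or after quantile normalization (0.10, adjusted p = 0.276). Slc39a3 did not pass (-0.17, adjusted p = 0.334) and passed as a fall without saline 1 (-0.31, adjusted p = 0.0480). The zinc exporter of the plasma membrane, Slc30a1, was at 26.1 ± 6.88 FPKM in saline and 23.1 ± 5.36 in LPS (adjusted p = 0.561).

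Among the 9 carriers of sodium, protons, chloride, bicarbonate and calcium, 3 rose and 2 fell. All but 1 of these belong to the Slc12 family of cation-chloride cotransporters. After quantile normalization 2 of the 9 passed as higher and 5 as lower, on total reads 2 and 4, and on the endothelial scale 4 and 0. Slc12a2, the cotransporter that brings sodium, potassium and chloride into the cell, was at 10.5, 6.56, 6.96 and 6.20 FPKM in saline and 13.2 to 26.9 FPKM in LPS (median 22.1). All LPS libraries were above the saline libraries, and the mean was 2.82-fold higher (log2 fold change 1.38, SE 0.19, adjusted p = 0.000192). The potassium-chloride cotransporter Slc12a7, which lets the ions out, was at 9.89, 7.99, 7.34 and 8.11 FPKM in saline and 4.05 to 5.08 FPKM in LPS (median 4.84), a log2 fold change of -0.69 (SE 0.10, adjusted p = 0.000285) that was -0.02 on the endothelial scale (adjusted p = 0.941). Its relative Slc12a4 rose by 0.39 (adjusted p = 0.0468) and Slc12a9 rose by 0.53 on the log2 scale, with overlapping groups. Slc12a4 did not pass when scaled on total reads (0.19, adjusted p = 0.244) or after quantile normalization (0.01, adjusted p = 0.939). The anion carrier Slc26a11 fell by 0.47, and was at 0.19 on the endothelial scale (adjusted p = 0.575). Slc24a4 did not pass (-0.47, adjusted p = 0.0546) and passed as a fall without saline 1 (-0.53, adjusted p = 0.0496). The anion exchanger Slc4a2 did not pass (adjusted p = 0.188).

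The 3 phosphate and magnesium carriers did not pass with all libraries. Without saline 1, Slc20a1 passed as a rise (0.30, adjusted p = 0.0455) and Slc41a1 as a fall (-0.35, adjusted p = 0.0484). Slc34a2, the sodium-phosphate cotransporter known from alveolar type II cells of the epithelium, was at 28.3, 33.9, 40.4 and 24.5 FPKM in saline and 13.9 to 39.8 FPKM in LPS (median 29.0), with a log2 fold change of -0.22 (adjusted p = 0.493). Epithelial markers were present in the same libraries, and the share of its reads that came from epithelium was not tested.

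Of the 23 mitochondrial carriers 8 rose and 3 fell, with a median log2 fold change of 0.20 that was -0.04 after quantile normalization. On total reads 6 passed as higher and 6 as lower, after quantile normalization 5 and 6, and on the endothelial scale 16 and 2. Slc25a5, which exchanges ATP for ADP across the inner membrane, was at 110, 63.1, 66.3 and 62.3 FPKM in saline and 204 to 326 FPKM in LPS (median 313). Every LPS library lay above saline 1, the highest saline library, and the mean was 3.76-fold higher (log2 fold change 1.91, SE 0.21, adjusted p = 4.02e-05). Slc25a4, the other adenine nucleotide translocase among the members, was at 53.2, 49.0, 58.1 and 50.6 FPKM in saline and 49.1 to 84.8 FPKM in LPS (median 60.7), and did not pass (log2 fold change 0.24, SE 0.17, adjusted p = 0.263). Reads of a processed pseudogene named after Slc25a5 numbered at most 2 per library. The oxoglutarate-malate carrier Slc25a11 was at 14.9, 20.7, 22.3 and 17.4 FPKM in saline and 30.7 to 50.7 FPKM in LPS (median 42.7). The carnitine-acylcarnitine carrier Slc25a20, which brings fatty acids in for oxidation, was at 5.98, 6.40, 7.31 and 4.70 FPKM in saline and 11.2 to 17.6 FPKM in LPS (median 14.1). Both rose without overlap, by 1.10 (SE 0.16, adjusted p = 0.000217) and 1.09 (SE 0.15, adjusted p = 0.00019) on the log2 scale, and both fell short of the limit of 1 when scaled on total reads (0.90 and 0.91) or after quantile normalization (0.70 and 0.94). Without saline 1 Slc25a11 was just under that limit (0.996). The phosphate carrier Slc25a3 rose by 0.56, the glutathione carrier Slc25a39 by 0.67, Slc25a45 by 0.87, and the citrate carrier Slc25a1 by 0.39 on the log2 scale. After quantile normalization neither Slc25a3 (0.07, adjusted p = 0.554) nor Slc25a1 (0.07, adjusted p = 0.639) passed, and Slc25a1 did not pass when scaled on total reads (0.19, adjusted p = 0.233). Slc25a44, which rose by 0.38, passed under neither of these scalings (adjusted p = 0.303 and 0.116). Without saline 1, Slc25a1 and Slc25a44 did not pass (adjusted p = 0.0670 and 0.0515), Slc25a24 and Slc25a46 passed as rises (0.45 and 0.31, adjusted p = 0.00900 and 0.0159), and Slc25a32 passed as a fall (-0.30, adjusted p = 0.0367).

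The 3 that fell in this family were Slc25a27, Slc25a23 and Slc25a51. Slc25a27, an uncoupling protein best known from neurons, was at 3.78, 5.55, 6.06 and 4.98 FPKM in saline and 0.289 to 1.14 FPKM in LPS (median 0.971), with 20 to 82 reads per LPS library. Slc25a23, a calcium-regulated carrier of ATP-magnesium and phosphate, was at 4.23, 6.45, 5.46 and 6.52 FPKM in saline and 0.944 to 2.61 FPKM in LPS (median 2.09). Neither overlapped between groups, and the log2 fold changes were -1.71 (SE 0.16, adjusted p = 1.59e-05) and -1.20 (SE 0.18, adjusted p = 0.000273). That of Slc25a27 was -2.65 with limma-voom on read numbers and -2.49 with 0.1 in place of 1 added to FPKM. Scaled on the endothelial list the fall of Slc25a23 was -0.63. The gene of Slc25a23 overlaps Crb3 on the opposite strand, and reads of such pairs cannot be told apart here, since the strand setting of the counting is not given in the sources used. Of the 40 members that overlap another annotated gene, this holds for the 31 that overlap one on the opposite strand, and the other 9 overlap genes on their own strand only. The NAD carrier Slc25a51, at a mean of 17.2 FPKM in saline, fell by 0.32 on the log2 scale, which did not pass without saline 1 (adjusted p = 0.0554) and was 0.40 on the endothelial scale (adjusted p = 0.133). The iron carriers Slc25a37 and Slc25a28 had log2 fold changes of 0.20 and -0.13 and did not pass.

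**Figure D4:**
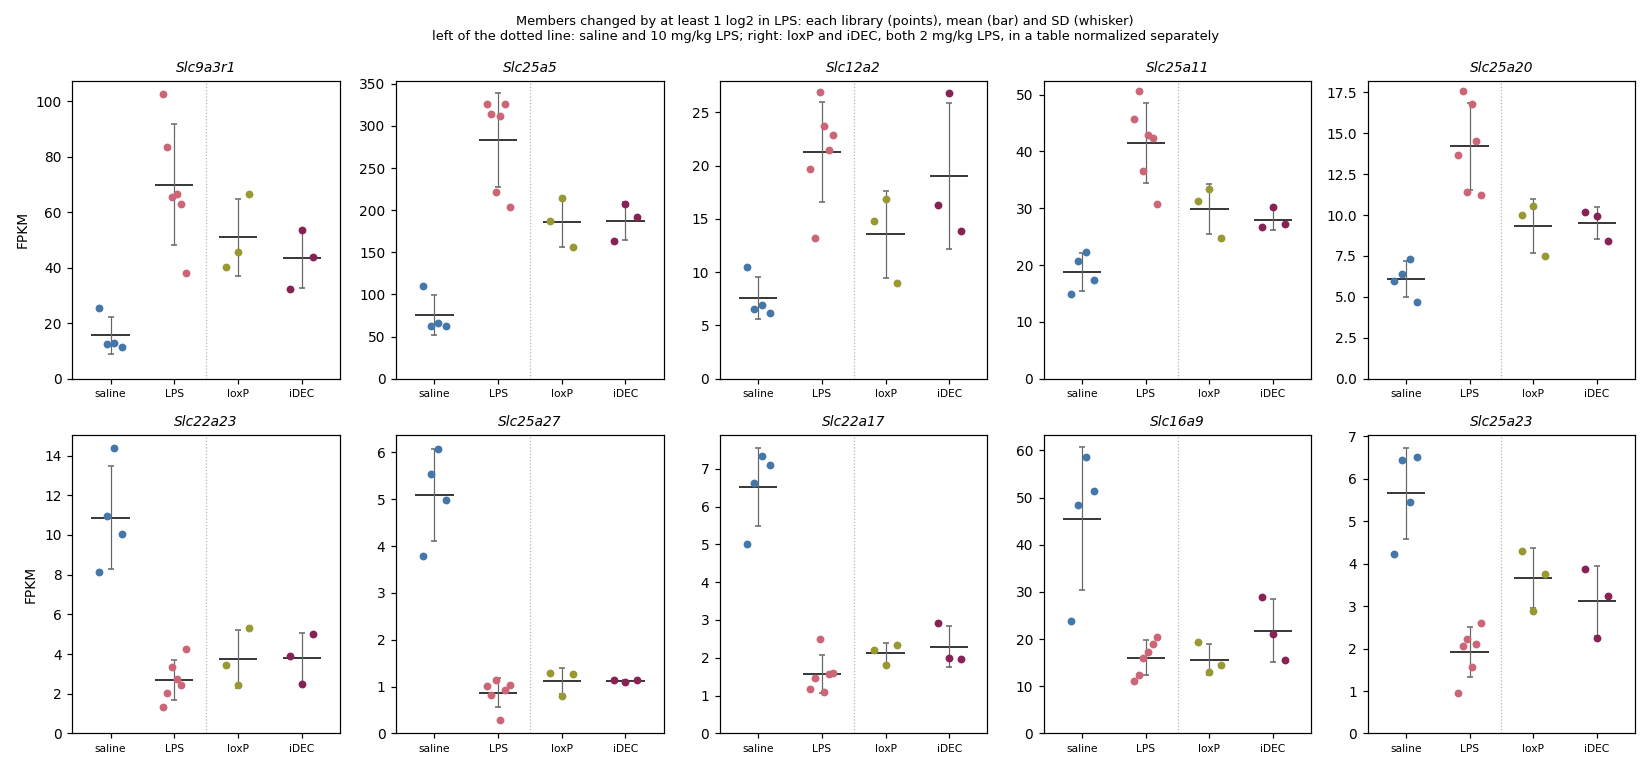
FPKM of the 10 members past both limits in LPS over saline, for every library (points) with the mean and SD of each group, in the first experiment (left of the dotted line) and the second (right). In none of the 10 did the saline and LPS libraries overlap, and loxP and iDEC overlapped in all of them.

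Of the scaffold pair Slc9a3r1 rose and Slc9a3r2 did not pass. Slc9a3r1 was at 25.6, 12.4, 12.9 and 11.5 FPKM in saline and 37.9 to 103 FPKM in LPS (median 66.1). It had the largest rise of the members, with a mean 4.47-fold higher and no overlap (log2 fold change 2.10, SE 0.28, adjusted p = 0.000123), and the log2 fold change was 2.36 without saline 1. Slc9a3r2 was at 165 to 444 FPKM in LPS (median 369) against 480 ± 67.9 FPKM in saline, and did not pass (log2 fold change -0.55, SE 0.27, adjusted p = 0.113). It did pass as a fall when scaled on total reads and after quantile normalization, and not on the endothelial scale. Slc7a6os was at 8.94 ± 1.73 FPKM in saline and 8.60 ± 0.580 in LPS. Without these 3 members, 4 of 81 carriers were higher and 5 lower past both limits. Summed over all members, FPKM was 0.836% to 0.933% of the sum over protein-coding genes in saline and 0.630% to 0.783% in LPS. The sum itself was 1888 to 2308 FPKM in saline and 2049 to 2503 FPKM in LPS, with overlapping groups, and the median member was at 9.85 to 10.1 FPKM in saline and 10.3 to 11.0 FPKM in LPS.

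The sequence before the transcript start in RefSeq is shown for the 2 largest rises and the 2 largest falls past both limits that had an entry, because these members have opposite changes and can be set beside each other. The sequences are from RefSeq on GRCm38.p6 and are the 250 bases before the RefSeq start, which lies 54 bases from the gene start in the deposited tables for Slc25a5, 36 for Slc22a23 and 0 for the other two, 5′ to 3′ on the strand of the gene, with CG pairs in capitals, since gene starts differ widely in how many they hold. Slc9a3r1 rose (chr11:115163091-115163340, plus strand), Slc25a5 rose (chrX:36795347-36795596, plus strand), Slc22a23 fell (chr13:34345219-34345468, minus strand) and Slc22a17 fell (chr14:54913133-54913382, minus strand).
Slc9a3r1: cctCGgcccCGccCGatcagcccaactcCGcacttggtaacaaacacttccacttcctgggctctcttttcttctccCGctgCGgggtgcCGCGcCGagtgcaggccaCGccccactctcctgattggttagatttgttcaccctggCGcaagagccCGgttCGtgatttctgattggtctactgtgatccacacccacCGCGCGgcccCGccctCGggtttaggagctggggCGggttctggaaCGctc
Slc25a5: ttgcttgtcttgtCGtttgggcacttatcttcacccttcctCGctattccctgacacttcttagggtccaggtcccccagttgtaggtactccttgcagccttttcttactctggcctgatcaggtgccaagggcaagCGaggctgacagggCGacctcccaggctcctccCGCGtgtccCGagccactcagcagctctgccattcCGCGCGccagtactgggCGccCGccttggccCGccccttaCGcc
Slc22a23: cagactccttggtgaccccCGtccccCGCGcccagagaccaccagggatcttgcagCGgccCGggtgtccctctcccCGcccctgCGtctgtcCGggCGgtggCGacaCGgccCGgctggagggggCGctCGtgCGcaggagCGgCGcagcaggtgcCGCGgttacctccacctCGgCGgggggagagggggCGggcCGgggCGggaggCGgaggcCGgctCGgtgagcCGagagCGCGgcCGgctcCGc
Slc22a17: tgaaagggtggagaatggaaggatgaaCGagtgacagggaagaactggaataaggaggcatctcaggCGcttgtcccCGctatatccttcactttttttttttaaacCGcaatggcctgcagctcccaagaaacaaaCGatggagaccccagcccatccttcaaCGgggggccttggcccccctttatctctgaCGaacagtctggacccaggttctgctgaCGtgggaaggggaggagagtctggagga

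These 4 sequences held 20, 14, 32 and 8 CG pairs in the order shown. An entry of 300 bases, from 250 before to 50 after the start, was found for 63 of the 84 members. Their median was 23 CG pairs (quartiles 16.5 and 30), against 13 (quartiles 4 and 24) over the 21263 entries of protein-coding genes. Over the 5498 entries of protein-coding genes at 5 FPKM or more in saline, the level that chose the members, the median was 22 (quartiles 15 and 30), close to that of the members. It was also 23 for the 18 members that rose and 23 for the 13 that fell. Motifs were searched on both strands of the same windows. A match to the usual degenerate consensus of NF-kB was in 5 of 63 members (7.94%) and in 4.81% of the protein-coding entries, or 5.42% of those at 5 FPKM or more. The 5 were Slc39a1 (GGGAATTCCC), Slc7a7 (GGGACTTCCC) and Slc25a1 (GGGGTTCTCC), which rose, and Slc37a4 and Slc36a4, which did not pass. The E-box CACGTG was in 11 members (17.5%) against 7.84% of the protein-coding entries and 10.8% of those at 5 FPKM or more, and of these 4 rose, among them Slc31a2 and Slc12a9, and 1 fell, Slc12a7. TGATGNAA, the amino acid response element, was in Slc7a7, which rose, and in Slc50a1, which fell, and in 3.6% of the protein-coding entries and 1.91% of those at 5 FPKM or more. The members past both limits that had an entry held none of these letters. A match is a description and was not tested as a binding site.

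Other transport genes, from lists of families and of carriers outside the members, showed the following in the same comparison. The 8 carriers that were set aside by name were all tested, and 7 rose. Slc11a1, the metal exporter of phagosomes in macrophages, was at 3.07 ± 3.77 FPKM in saline and 114 ± 37.9 in LPS. The cystine-glutamate exchanger Slc7a11 rose by 2.99, the cationic amino acid carrier Slc7a2 by 1.94, the glucose carrier Slc2a1 by 1.67 and the zinc and iron importer Slc39a14 by 1.44 on the log2 scale. Slc11a2 and Slc40a1, which carry iron, rose by 0.88 and 0.49. Slc6a2, the noradrenaline carrier, fell from 24.5 ± 15.7 to 6.39 ± 3.23 FPKM. Of the other 250 carriers, which were under 5 FPKM in saline, 102 were tested, 42 rose and 21 fell, and 17 were higher and 5 lower past both limits. The lactate exporter Slc16a3 went from 3.29 ± 4.97 to 35.0 ± 7.81 FPKM, and Slc7a8 from 0.193 ± 0.0535 to 7.49 ± 3.12 FPKM. Slc7a5, which like Slc7a7 pairs with Slc3a2, went from 0.980 ± 0.650 to 7.40 ± 2.99 FPKM, and Slc5a12 fell from 3.22 ± 0.976 to 0.110 ± 0.0836 FPKM. These were low in saline by choice, so that they had more room to rise, and nothing is read from the balance.

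Of the 29 pump genes tested, 15 rose and 7 fell. Subunits of the proton pump of endosomes and lysosomes, set apart after their values were seen, made up 18 of these genes, of which 12 rose and 3 fell, beside 29.5% and 23.7% of all genes. They included Atp6v1b2 at 13.3 ± 1.00 FPKM in saline and 49.7 ± 8.63 in LPS and Atp6v0c at 12.8 ± 2.32 and 39.0 ± 7.22, while Atp6v1c2, Atp6v0e2 and Atp6v1g2 of the same pump fell. The calcium pump Atp2a3 fell from 216 ± 35.7 to 66.8 ± 13.6 FPKM. Of 30 ABC transporters tested, 14 rose and 8 fell. The drug exporter Abcb1a, a gene of endothelial barriers, fell from 46.4 ± 8.04 to 24.6 ± 5.42 FPKM, and its neighbour in the family Abcb1b rose from 0.637 ± 0.204 to 3.14 ± 0.639 FPKM. Aqp1, the water channel of endothelium, fell from 958 ± 246 to 396 ± 130 FPKM, and among 4 aquaporins tested Aqp11 fell too and Aqp9 rose. Among 4 organic anion transporting polypeptides tested, Slco3a1 rose and Slco2b1 fell. Of the accessory proteins that are not members 5 were tested and 5 rose, namely the monocarboxylate carrier partners Emb (log2 fold change 1.42) and Bsg (0.50), Nptn, Ostm1 and Arl6ip5.

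The second comparison asks whether carriers differ when ECs have lost Fgfr1, under 2 mg/kg LPS in both groups. Fgfr1 itself was at 2.90, 2.91 and 2.60 FPKM in loxP and at 0.682, 1.41 and 1.15 FPKM in iDEC. All iDEC libraries were below all loxP libraries, as their labels say, with a log2 fold change of -0.88 (SE 0.16). The two-sided exact permutation p was 0.1, the smallest that 3 libraries against 3 allow, and the limma p adjusted over 14945 genes was 0.962. No gene passed an adjusted p of 0.05 in this comparison by limma, or by limma with the replicate number as a block or on read numbers with limma-voom, and so no member did. At an unadjusted p under 0.05 there were 661 genes, or 4.42% of those tested, and 6 of the 84 members (7.14%). Whether the replicate numbers mark pairs of libraries is not stated in the labels. With the number as a block the unadjusted count was 14 members, beside 7.72% of all genes. limma-voom gave 8 members. The count was 1 without loxP 2 and 11 without iDEC 2. For fits other than the main one and the block, the share of all genes at this limit is not given. Nothing is therefore read from these counts. In 11 members (13.1%) the groups did not overlap, 9 higher and 2 lower in iDEC, beside 10.1% of all genes tested. The median log2 fold change was 0.05 for the members, 0.01 for all genes tested and 0.05 for the protein-coding genes at 5 FPKM or more in saline.

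The members with the smallest unadjusted p were all higher in iDEC and none passed, with an adjusted p of 0.962 each. Slc12a4, a potassium-chloride cotransporter, was at 28.7, 25.0 and 23.0 FPKM in loxP and 34.9, 32.1 and 35.8 FPKM in iDEC, a log2 fold change of 0.41 (SE 0.12). Slc3a2 was at 135, 104 and 122 FPKM in loxP and 165, 156 and 180 FPKM in iDEC (0.48, SE 0.15). In both genes the groups were apart. The vitamin C carrier Slc23a2 was at 10.4, 8.98 and 11.6 FPKM in loxP and 14.0, 13.4 and 13.0 FPKM in iDEC (0.36, SE 0.11). Slc25a17, which carries coenzyme A and related cofactors into peroxisomes, was at 14.1, 11.7 and 13.1 FPKM in loxP and 16.2, 16.0 and 16.1 FPKM in iDEC (0.30, SE 0.10). Slc16a13, a monocarboxylate family member, was at 8.12, 7.09 and 5.49 FPKM in loxP and 9.94, 10.4 and 8.12 FPKM in iDEC (0.42, SE 0.16), where the groups met at 8.12. Scaled on the endothelial list, the log2 fold changes of these 5 genes were 0.13 for Slc12a4, 0.18 for Slc3a2, 0.08 for Slc23a2, 0.02 for Slc25a17 and 0.16 for Slc16a13. The other members without overlap were Slc38a2, Slc30a5, Slc36a4, Slc25a44 and Slc39a9, which were higher in iDEC, and Slc48a1 and Slc7a7, which were lower. Taken as pairs of the same number, 28 members (33.3%) were higher in iDEC in all 3 pairs and 9 (10.7%) were lower in all 3. Of all genes tested 17.8% were higher and 12.9% lower in all 3 pairs, and of the protein-coding genes at 5 FPKM or more in saline 24.9% and 8.19%, so that more were higher than lower there too. The zinc exporter Slc30a1, which overlaps a gene on the opposite strand, was at 32.1, 24.0 and 25.8 FPKM in loxP and at 43.5, 29.8 and 37.3 FPKM in iDEC. It had the smallest p of the members with the block and did not pass after adjustment over all genes (log2 fold change 0.41, SE 0.09, limma adjusted p = 0.571). Of the 14 members at an unadjusted p under 0.05 with the block, 11 were higher in iDEC, and Slc34a2, Slc7a7 and Slc1a5 were lower. Slc7a7 was at 6.30, 8.43 and 6.24 FPKM in loxP and 5.05, 5.96 and 5.63 FPKM in iDEC. Among the members past both limits in LPS over saline, Slc25a5 was at 186 ± 28.9 FPKM in loxP and 187 ± 22.5 FPKM in iDEC (SD, n = 3), and Slc9a3r1 at 50.9 ± 13.9 and 43.3 ± 10.6 FPKM.

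**Figure D5:**
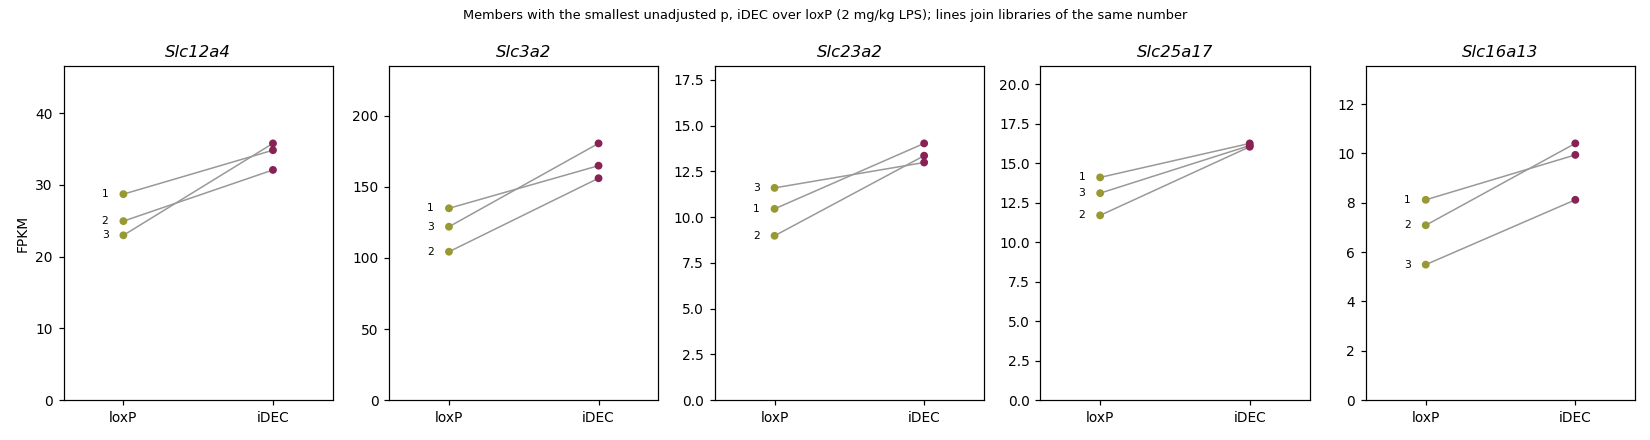
FPKM in each loxP and iDEC library of the 5 members with the smallest unadjusted p, with a line between libraries that share a replicate number. Each line goes up from loxP to iDEC, and none of the 5 passed an adjusted p of 0.05.

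The marker lists were summed in the same libraries. Endothelial markers summed to 3249, 2607 and 2660 FPKM in loxP and 4127, 2954 and 3828 FPKM in iDEC, and epithelial markers to 980, 1734 and 2972 FPKM in loxP and 498, 1146 and 904 FPKM in iDEC. The groups overlapped in both sums. Within every pair of the same number, however, the endothelial sum was higher and the epithelial sum lower in iDEC. The neutrophil sum was lower in every pair too (1173, 2552 and 2601 FPKM in loxP and 752, 2440 and 1539 in iDEC). The mural sum was lower in every pair as well (77.8, 102 and 140 FPKM in loxP and 53.5, 91.3 and 83.4 in iDEC). Leukocyte, macrophage and lymphocyte sums were lower in iDEC in pairs 1 and 3 and higher in pair 2. Every neutrophil, leukocyte, macrophage and lymphocyte marker had a negative log2 fold change. All 10 endothelial markers had a positive and all 10 epithelial markers a negative log2 fold change, none of these genes passed, and 30% of the epithelial markers had an unadjusted p under 0.05. Slc34a2, the member known from epithelium, was at 26.5, 37.4 and 58.7 FPKM in loxP and 13.1, 36.7 and 22.0 FPKM in iDEC. Scaled on the endothelial list, the median log2 fold change of the members was -0.20 and that of all genes -0.22, and 2 members had an unadjusted p under 0.05. The part of these lists in the differences of single carriers was not tested.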

How the data were processed

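Total RNA of bead-isolated mouse pulmonary ECs was sequenced in 16 libraries. According to the submitters' processing notes reads were aligned to mm10 with HISAT2 2.0.5 and counted on genes with featureCounts 1.5.0-p3, and the authors deposited FPKM with gene lengths, in a table per experiment and with no pooling of replicates. The annotation release, strandedness and treatment of reads with several alignments are not given in the sources used here. FPKM multiplied by length and by a factor for each library gave whole read numbers for 100% of the values. The margin was 0.01 for low read numbers and grew with the read number above them, so that the largest could not fail. The reads on genes given here are these numbers, rounded. These factors were not proportional to the reads on genes. Fgfr1, for example, was at 5.52 FPKM on 721 reads in saline 1 and at 2.93 FPKM on 641 reads in saline 2. The deposited values already carried a scaling between libraries, and their median-of-ratios factors were within 0.182% of 1. The lowest value of a member stood on 20 reads in a library. No molecular identifiers were used, so precision from read numbers covers counting error only.

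FPKM was scaled by median-of-ratios factors (at most 0.182% from 1), genes averaging 0.5 FPKM or more over an experiment were kept, and log2(FPKM + 1) was compared with limma 3.58.1 in R 4.3.3 (eBayes with trend) without a block, with Benjamini-Hochberg adjustment over all genes tested. A fold change is on the log2(FPKM + 1) scale, which understates the change of low genes. The study used a test for read counts. Here limma on log values of the deposited FPKM was the main test, and limma-voom on the recovered read numbers was an alternative. The fits were tested on simulated data, and no result of that test is given or used here. In the second experiment the deviations of same-numbered loxP and iDEC libraries correlated at 0.25, 0.18 and 0.19, and all other pairs were negative. Deviations were taken from the mean of each group, so positive values for same numbers force the others to be negative on average. With 3 libraries in each group these values do not establish a pairing. The labels do not say what the number marks.

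The members, the role of each family, the marker lists and the lists of other transport genes were chosen with earlier results of these data known. Slc7a6os was given a role of its own after the values were seen. The rule for named genes took the 10 highest in saline, the members past both limits, the 5 with the smallest p by genotype and the genes beside the threshold. Other genes named were chosen after their values were seen. The values of 3 members are not reported here, and the counts and medians include them. Of the members, 80 have the same coordinates in GENCODE M21. For 11 genes the symbol had been turned into a date in the second experiment and was taken from the first. Alternatives were other pseudocounts, filters and scalings, limma-voom, no fold limit, the block, leaving out each library and lists chosen otherwise. Python 3.11.15, pandas 2.3.3, numpy 2.4.6, scipy 1.17.1 and matplotlib 3.10.9 were used for tables, tests and figures.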

Additional observations from a re-analysis of the deposited data

Results flagged for a closer look

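In 5 of 52 values of a gene in a group of 4 to 6 libraries, the highest or lowest library lay far from the rest of its group by Dixon's criterion, and chance alone gives about 2.6 among 52. Saline 1 was the far library in 4 of them. It had 110 FPKM of Slc25a5 where the other saline libraries had 62.3 to 66.3, 25.6 FPKM of Slc9a3r1 where they had 11.5 to 12.9, 25.7 FPKM of Slc12a4 where they had 20.1 to 20.8 and 22.8 FPKM of Slc23a2 where they had 12.2 to 13.1. The same library held the highest neutrophil sum of the saline group, 1382 FPKM against 71.4 to 309. In Slc25a5 and Slc9a3r1 the log2 fold change in LPS over saline was larger without it (2.11 and 2.36). In Slc12a4 it was 0.47 (adjusted p = 0.0252), and in Slc23a2 it was -0.49 (adjusted p = 0.0729). The fifth value was Slc25a27 in LPS 4, at 0.289 FPKM where the other LPS libraries had 0.830 to 1.14. The cause of these values was not tested.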

How the results depend on the processing

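None of the 10 members past both limits in LPS over saline changed direction under the alternatives run, while 11 members that fell past the adjusted p alone turned positive on the endothelial scale. Of the summary values, 179 stayed close to the reported one and 31 moved. For LPS over saline, all genes called lower numbered 2008 with limma-voom and 1840 with a pseudocount of 0.1. After quantile normalization members called higher and lower were 3 and 10 (median -0.17), and all genes 1366 and 1326 (median -0.08). Scaled on total reads, members were 3 and 8 (median -0.21), and all genes 1378 and 1453 (median -0.15). Scaled on the endothelial list, members were 24 and 2 (median 0.64, all genes 4606 and 185 with a median of 0.60). With no limit on the fold change they were 22 and 20 (all genes 4399 and 3529). Lists chosen otherwise gave 13 and 2 (mean of all 10 libraries), 13 and 1 (mean of loxP), and 9 higher on saline 3 and 4 after choice on saline 1 and 2. Leaving out a library each gave 4 to 7 members higher and 5 to 6 lower. Of all genes it gave 1641 to 1947 higher and 910 to 1107 lower. The median of the members was -0.0438 to 0.0346, at 0.0304 without saline 1 and 0.0346 without saline 3. Members at an unadjusted p under 0.05 numbered 41 to 54. With all libraries they numbered 51 (60.7%), beside 59.6% of all genes tested. Past the limit of 1 no more were Slc25a11 (0.90 on total reads, 0.70 after quantile normalization and 0.996 without saline 1) and Slc25a20 (0.91, 0.94 and, without saline 4, 0.99), and on the endothelial scale Slc16a9, Slc22a17 (-0.97) and Slc25a23. For iDEC over loxP, members at an unadjusted p under 0.05 numbered 14 with the block, 2 on the endothelial scale (median -0.20) and 1 to 11 leaving out a library each (medians 0.0344 to 0.0898), and the median was -0.0131 on total reads. Why these counts moved was not tested.

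In the saline and LPS libraries same-numbered libraries did not deviate together (correlations 0.07, -0.17, -0.16 and -0.09). With the number as a block over replicates 1 to 4, members called were 7 higher and 6 lower, as in the same 8 libraries without it, and all genes called were 1926 and 1064. The block changed no call of a member in iDEC over loxP, where no gene passed. The limits are few libraries, with 3 against 3 by genotype, bulk cells of which some were not endothelial, members chosen on libraries that enter the first comparison, and counting whose strand setting is not given in the sources used here.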
